A study of Mus musculus with 12 samples.

Results

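Toll-like receptors (TLRs) are pattern recognition receptors through which macrophages and microglia sense microbial products and debris of damaged cells. TLR1, TLR2, TLR4, TLR5 and TLR6 act at the cell surface, whereas TLR3, TLR7, TLR8, TLR9 and TLR13 read nucleic acids in endosomes. Ligand binding recruits the adaptors MyD88 or TRIF, and signalling ends in NF-kappaB, AP-1 and interferon regulatory factors. Described here is the open chromatin around the 10 receptor genes Tlr1, Tlr2, Tlr3, Tlr4, Tlr5, Tlr6, Tlr7, Tlr8, Tlr9 and Tlr13 in brain macrophages of bone marrow chimeras. The members were all ATAC-seq peaks whose nearest gene, as the authors' peak annotation names it, was one of these 10, which gave 134 of 115241 peaks. Tlr11 and Tlr12 were not among them. Peaks annotated to a promoter were kept apart from all others, called distal here. The name of a distal peak is the gene with the nearest start, and its link to that gene was not tested.

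ATAC-seq cuts accessible DNA with a transposase and counts the resulting fragments as tags. The mice were wild-type C57BL/6J recipients that had been irradiated with 950 cGy when a few weeks old and had received congenic wild-type bone marrow carrying CD45.1. From each brain, graft-derived cells (CD45.1) and host microglia (CD45.2) were sorted from the same animal as Ly6C/G-negative, CD11b-positive cells with low CD45. The labels give 3.5 or 9 months between transfer and analysis, and the study's text names the longer interval. Mice 4, 5 and 6 were untreated, and mice 1, 2 and 3 had received 2.5 mg/kg of lipopolysaccharide (LPS), the bacterial ligand of TLR4, 12 hours earlier, so that there were 4 groups of 3 libraries. The sample names give only these numbers, and equal numbers were assumed to mark the same mouse. All host cells had been irradiated and no graft cell had, so origin and irradiation cannot be told apart, and treated and untreated mice were different animals. More cells with an open region and a wider opening in each cell cannot be told apart in such bulk libraries.

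Total tags ran from 8392877.5 to 9107770 in the untreated libraries and from 2966364 to 6556594.5 in the LPS libraries, so the LPS values carry more counting error. Between 18.4% and 39.0% of tags fell in the merged peaks, the lowest share being that of the CD45.2 library of untreated mouse 4. At 6 of 8 microglial marker genes a promoter peak was found. Sall1 and Slc2a5 had no peak annotated to a promoter, so no tags were counted for them. Tags were scaled separately at rest and after LPS, so marker values are compared only between the cell types. The summed normalized tags of the 6 genes were 442 to 547 in CD45.1 and 586 to 667 in CD45.2 libraries at rest. After LPS they were 145 to 197 against 186 to 212. Of 6 genes of other macrophages and monocytes, 4 had a promoter peak at rest and 5 after LPS (Ccr2 had none in either). Their sums were 206 to 248 against 48.1 to 62.6 at rest and 70.4 to 109 against 29.5 to 36.5 after LPS. T cell, B cell, oligodendrocyte, neuronal and endothelial markers had no promoter peak in either table. Of 3 neutrophil markers only S100a8 had one, after LPS (5.68 to 19.4 against 8.70 to 28.6 tags). Of 3 astrocyte markers only Aldh1l1 had one, with 10.3 to 16.4 against 24.4 to 53.2 tags at rest and 3.31 to 5.21 against 7.002 to 19.97 after LPS. The part of these marker differences in the results at receptor genes was not tested.

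The untreated table held 67 receptor peaks of 60288 (57 distal and 10 promoter peaks), and the LPS table held 67 of 54953 (58 distal and 9 promoter peaks). Every receptor gene had a peak in each table, and 8 of the 10 had a promoter peak in each. Tlr2 had the most peaks at rest, 15, followed by Tlr5 with 12, whereas Tlr6 had 2 and Tlr8 had 1. A peak was taken as present in both tables when each region covered at least 50% of the other, which held for 46 receptor peaks. After LPS, 4 receptor peaks, 1 each at Tlr2, Tlr5, Tlr8 and Tlr9, had no library above 10 tags and were not tested.

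By the study's rule of more than 4-fold and a p under 0.01, taken here as the adjusted p because its text does not say which p is meant, 9 receptor peaks separated graft-derived cells from host microglia. The 6 with the smallest adjusted p are shown as sequence, since most of the comparisons below turn on them. Of the 6, 5 were more accessible in untreated CD45.1 cells and 1, at Tlr4, in CD45.1 cells after LPS. The sequences are from mm9, plus strand, 5′ to 3′, and capitals mark motif matches.
Tlr2, 43.7 kb upstream, chr3:83689172-83689346: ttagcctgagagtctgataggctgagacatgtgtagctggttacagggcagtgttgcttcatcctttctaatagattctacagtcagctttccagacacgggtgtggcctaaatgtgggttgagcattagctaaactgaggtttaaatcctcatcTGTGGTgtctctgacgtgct
Tlr2, 14.2 kb upstream, chr3:83659681-83659816: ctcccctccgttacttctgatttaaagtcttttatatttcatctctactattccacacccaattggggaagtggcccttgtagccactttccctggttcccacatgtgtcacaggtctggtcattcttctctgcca
Tlr2, 3.37 kb upstream, chr3:83648855-83648953: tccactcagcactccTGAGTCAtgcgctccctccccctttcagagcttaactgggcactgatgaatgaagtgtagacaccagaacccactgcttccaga
Tlr13, 8.22 kb upstream, chrX:103330315-103330473: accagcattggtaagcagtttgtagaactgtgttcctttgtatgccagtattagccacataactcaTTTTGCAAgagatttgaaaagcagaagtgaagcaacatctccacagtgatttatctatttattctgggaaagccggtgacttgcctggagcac
Tlr13, 5.12 kb downstream, chrX:103343666-103343797: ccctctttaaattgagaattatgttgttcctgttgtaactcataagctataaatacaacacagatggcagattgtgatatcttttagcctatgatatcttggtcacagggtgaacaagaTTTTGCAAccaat
Tlr4, 5.59 kb upstream, chr4:66482914-66483076: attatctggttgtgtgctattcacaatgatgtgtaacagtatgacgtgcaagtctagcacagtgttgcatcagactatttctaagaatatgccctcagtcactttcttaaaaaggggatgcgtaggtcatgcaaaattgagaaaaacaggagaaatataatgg

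The motifs searched, on both strands, were PU.1 (GAGGAAGT), AP-1 (TGANTCA), C/EBP (TTGCNNAA), RUNX (TGTGGT), IRF (GAAANNGAA), PU.1-IRF (GGAANNGAA) and the NF-kappaB consensus. The capitals mark a RUNX match 43.7 kb upstream of Tlr2, an AP-1 match 3.37 kb upstream of Tlr2 and a C/EBP match on the minus strand in each Tlr13 region. A RUNX match stood in 14.3% of all untreated peaks over windows of the same 175 bases, an AP-1 match in 4.91% over 99 bases, and a C/EBP match in 8.17% over 159 and 6.98% over 132 bases. The letters searched did not occur in the Tlr2 region 14.2 kb upstream or in the Tlr4 region. The region 5.12 kb downstream of the Tlr13 start lay in an intron of Tlr13, and the other 5 overlapped no gene in GENCODE.

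The first comparison asked where the receptor loci differed between graft-derived cells and host microglia at rest. Of 67 receptor peaks, 12 were more accessible in CD45.1 and 3 in CD45.2 cells (DESeq2 Wald test, Benjamini-Hochberg adjusted p under 0.05), against 8.57% and 6.33% of all 59170 peaks tested. By the study's rule 6 were higher in CD45.1 and 1 in CD45.2 cells, against 3.68% and 2.56%. The 6 were 4 peaks of Tlr2, the receptor for bacterial lipoproteins, and 2 of Tlr13, the mouse endosomal receptor for bacterial ribosomal RNA. With the mouse as a block the 6 became 4, without Tlr2 at 14.2 kb upstream, which lay at the fold limit, and 19.6 kb downstream. Without the CD45.2 library of mouse 6 they became 3, losing Tlr2 at 3.37 kb as well, and without that of mouse 5 the 1 peak towards the host was lost. All 15 called peaks were distal, and in all 15 the CD45.1 and CD45.2 values did not overlap, as in 99.2% of all called peaks and 35.5% of all peaks tested. Of the 12 towards CD45.1, 7 had been called as a peak in no CD45.2 library and were included only through CD45.1 libraries. Those 7 were picked where CD45.1 was high, so their separation is no independent support. The median log2 fold change of the receptor peaks was 0.12, beside 0.00051 over all peaks. Without the CD45.2 library of mouse 4, in which fewest tags fell in peaks, 12 and 2 receptor peaks were called.

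**Figure D1:**
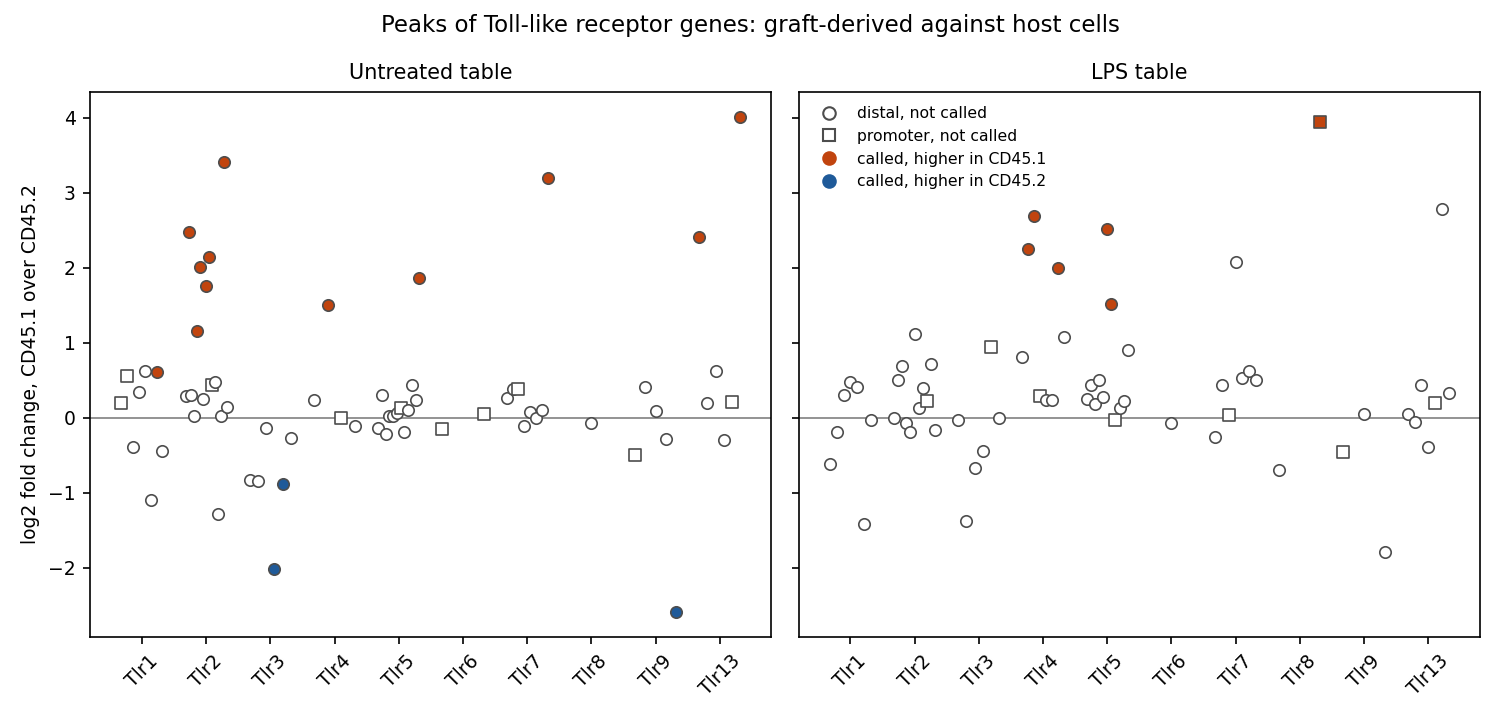
Each point is 1 receptor peak, placed over its gene, with the log2 fold change of CD45.1 over CD45.2 on the y axis for untreated and for LPS-treated mice. Circles are distal peaks, squares promoter peaks, and filled symbols had an adjusted p under 0.05, which 12 peaks reached upwards and 3 downwards at rest and 6 upwards after LPS.

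Tlr2 lies on the minus strand at chr3:83640195-83645689 (mm9). Values below are normalized tags, the deposited tags rounded to whole numbers and divided by the size factor of the library within its table, in the order of mice 4, 5 and 6. The peak 43.7 kb upstream, with the RUNX match, had 102, 83.1 and 179.6 tags in the CD45.1 libraries and 24.5, 16.3 and 25.2 in the CD45.2 libraries, a log2 fold change of 2.48 ± 0.31 (SE; DESeq2 adjusted p = 1.10e-12). The lowest graft library thus stood far above the highest host library, and mouse 6 was highest among the graft libraries. The peak 3.73 kb upstream (chr3:83649160-83649369) had 131, 129 and 181 tags in graft and 50.6, 35.7 and 45.5 in host libraries, a log2 fold change of 1.76 ± 0.23 (adjusted p = 4.96e-12). Its neighbour 3.37 kb upstream, with the AP-1 match, had 38.3, 44.7 and 32.7 against 11.4, 8.53 and 7.32 tags, a log2 fold change of 2.14 ± 0.43 (adjusted p = 2.04e-05). At both neighbours every graft library was above every host library.

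Further upstream of Tlr2, the region at 14.2 kb had 37.3, 33.8 and 37.01 against 9.79, 9.31 and 8.13 tags (log2 fold change 2.00 ± 0.43, adjusted p = 7.28e-05). The region at 17.6 kb had 62.6, 49.3 and 54.4 against 27.7, 19.4 and 28.4 tags (1.16 ± 0.31, adjusted p = 0.00247), a call lost without the CD45.1 library of mouse 4, without the CD45.2 library of mouse 5 and with scaling to total tags (adjusted p over all alternatives 0.000195 to 0.0867). Both regions were higher in the graft. A weak peak 19.6 kb downstream had 13.1, 8.22 and 21.8 against 3.26, 0.776 and 0.813 tags (3.41 ± 0.92, adjusted p = 0.00281), and its call was lost without the CD45.2 library of mouse 5 (adjusted p = 0.0554, 0.000557 to 0.0554 over all alternatives).

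The Tlr2 region with the most tags, 21.6 kb upstream, had 244, 201 and 202 against 232, 206 and 204 tags, and its groups overlapped (0.022 ± 0.15, adjusted p = 0.966). The Tlr2 promoter peak had 108, 77.6 and 91.4 against 79.96, 60.5 and 68.3 tags, and its groups overlapped too (0.43 ± 0.22, adjusted p = 0.222). Thus 6 of the 15 Tlr2 peaks were called, all of them distal and higher in the graft.

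**Figure D2:**
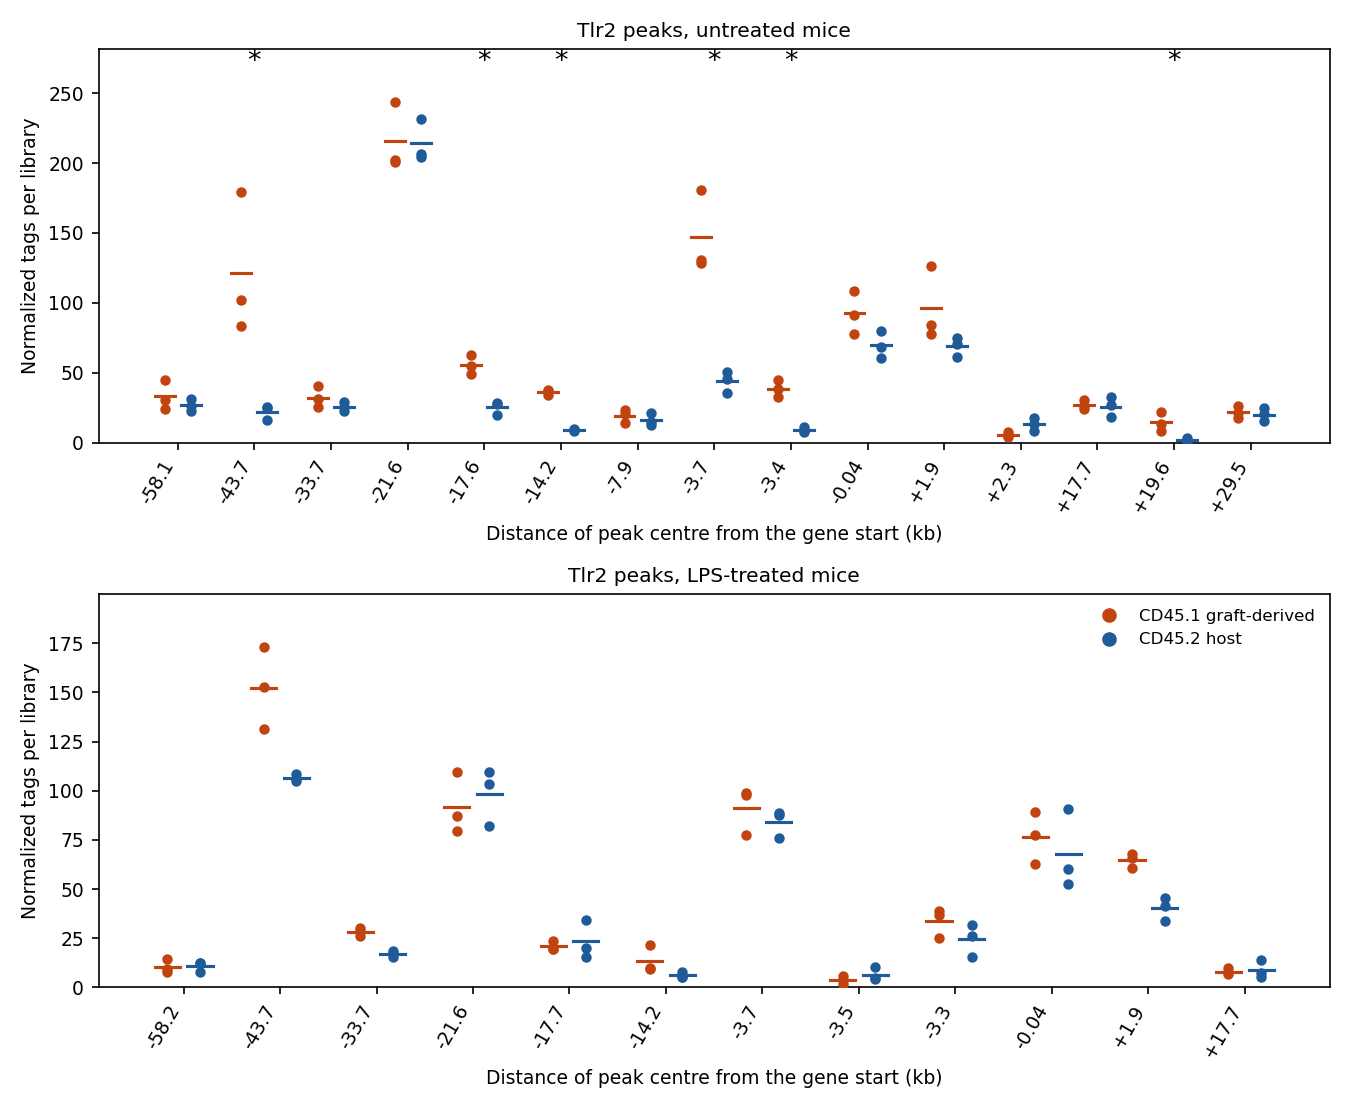
Normalized tags (y axis, scaled within each table) at every Tlr2 peak, ordered by distance from the gene start in kb (x axis), in untreated and in LPS-treated mice. Points are libraries, bars are means of 3, and stars mark an adjusted p under 0.05, which 6 peaks reached at rest and 0 after LPS.

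Tlr13 lies on the plus strand at chrX:103338543-103355832. The region 8.22 kb upstream had 37.3, 47.5 and 50.1 against 11.4, 6.21 and 8.94 tags (log2 fold change 2.41 ± 0.42, adjusted p = 6.35e-07). The intronic region 5.12 kb downstream had 19.6, 13.7 and 29.4 against 1.63, 0.776 and 1.63 tags (4.01 ± 0.87, adjusted p = 0.000104), where the CD45.2 libraries held 4 rounded tags in all and the CD45.1 libraries 63. Both regions, each with a C/EBP match, were higher in every graft library. The Tlr13 promoter peak had 31.7, 31.96 and 44.6 against 34.3, 26.4 and 33.3 tags, with overlapping groups (0.21 ± 0.33, adjusted p = 0.805).

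The other nucleic acid receptors differed in both directions. The peak named for Tlr9, the receptor for unmethylated CpG DNA, 11.6 kb downstream of its start lay in an exon of the transcript NM_020559, outside Tlr9. It had 3.73, 5.48 and 2.18 tags in graft and 21.2, 24.8 and 23.6 in host libraries (-2.60 ± 0.60, adjusted p = 0.000275), and was the 1 receptor peak past the study's rule towards the host. At the Tlr9 promoter the values were 91.5, 86.8 and 85.99 against 134, 132 and 111 tags, again with every host library higher. That log2 fold change of -0.50 ± 0.19 missed the threshold (adjusted p = 0.0544) and passed it in edgeR's quasi-likelihood test (adjusted p = 0.0150) and with a mean count of at least 20 (0.0406), the range over all alternatives being 0.0150 to 0.639.

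Tlr3, the receptor for double-stranded RNA, was more accessible in host cells 4.67 kb upstream, with 68.2, 84.02 and 55.5 against 126, 129 and 130.1 tags (-0.88 ± 0.20, adjusted p = 0.000311), a call lost with scaling to total tags (adjusted p = 0.175, 0.000121 to 0.175 over all alternatives). A weaker peak 5.58 kb upstream had a log2 fold change of -2.02 ± 0.71 (adjusted p = 0.0346), which was lost with the mouse as a block (adjusted p = 0.113) and without any 1 of the 6 libraries (0.00908 to 0.196 over all alternatives). The log2 fold changes of the other 4 Tlr3 peaks, none of them called, ran from -0.84 to -0.13. Tlr3 had no peak annotated to a promoter at rest, and a peak centred 0.247 kb downstream of its start was counted as distal.

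Tlr7, which reads single-stranded RNA, was called at 1 of 8 peaks, 28.3 kb downstream (3.19 ± 0.99, adjusted p = 0.0120), where the CD45.2 libraries held 4 rounded tags in all. The call was lost with the mouse as a block (adjusted p = 0.0610) and without the CD45.2 library of mouse 5 or 6 (0.00360 to 0.104 over all alternatives). The Tlr7 promoter had 28.9, 28.3 and 28.3 against 16.3, 21.7 and 26.01 tags, without overlap but short of the threshold (0.38 ± 0.37, adjusted p = 0.636). The 1 Tlr8 peak at rest, 12.9 kb upstream, had overlapping groups and a log2 fold change of -0.074 ± 0.49 (adjusted p = 0.965).

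Among the other surface receptors, Tlr4 was called at 1 of 4 peaks. Tlr4 lies on the plus strand at chr4:66488618-66591318. The called region, 30.6 kb upstream (chr4:66457871-66458030), had 42.02, 43.8 and 57.7 against 14.7, 17.1 and 17.9 tags (1.51 ± 0.35, adjusted p = 0.000317), with every graft library higher. The Tlr4 promoter, the strongest receptor promoter in both tables, had 246, 311 and 237 against 273, 245 and 279.6 tags at rest, with overlapping groups (-0.00017 ± 0.14, adjusted p = 1.00). Tlr5, the flagellin receptor, was called at 1 of 12 peaks, a region as far as 449.9 kb downstream with 42.95, 56.6 and 75.1 against 11.4, 17.8 and 17.1 tags (1.86 ± 0.35, adjusted p = 5.34e-06). The Tlr5 promoter had 46.7, 51.1 and 42.5 against 45.7, 42.7 and 41.5 tags, with overlapping groups (0.12 ± 0.28, adjusted p = 0.880).

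Tlr1 and Tlr6, the partners of TLR2 in lipoprotein sensing, lie beside each other on chromosome 5. Tlr1 was called at 1 of 8 peaks, 48.3 kb downstream (0.61 ± 0.21, adjusted p = 0.0263). That call was lost with the mouse as a block (adjusted p = 0.140), with scaling to total tags (0.491) and without the CD45.1 library of mouse 4 or 5 or the CD45.2 library of mouse 5 or 6 (0.00558 to 0.491 over all alternatives). Of its promoter peaks the stronger had 10.3, 10.96 and 7.62 against 6.53, 7.76 and 10.6 tags (0.19 ± 0.61, adjusted p = 0.919). Both Tlr6 peaks at rest were promoter peaks, and the stronger had 107, 124 and 121 against 113, 135 and 139.8 tags (-0.15 ± 0.18, adjusted p = 0.723). The groups overlapped at both promoters.

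Summing the tags of all distal peaks gave 1 value for each gene. Of the 9 receptors with a distal peak at rest, 3 were called, against 21.5% of 12989 genes. The Tlr2 sum over 14 peaks was 859 ± 101 tags (SD, n = 3) in CD45.1 and 518 ± 19.9 in CD45.2 cells, with a log2 fold change from DESeq2 of 0.73 ± 0.11, adjusted p = 2.03e-09. The Tlr13 sum over 5 peaks was 194 ± 16.4 against 128 ± 9.32 (0.59 ± 0.17, adjusted p = 0.00301). The Tlr3 sum over 6 peaks was 189 ± 39.1 against 294 ± 6.34 (-0.63 ± 0.16, adjusted p = 0.000643). Tlr2 and Tlr13 were thus higher in the graft and Tlr3 in the host. Any Tlr2 or Tlr13 peaks among the 7 included only through CD45.1 libraries entered their sums, so those sums are no independent support. With scaling to total tags none of the 3 passed (adjusted p = 0.301 for Tlr2, 0.654 for Tlr13 and 0.612 for Tlr3), while each kept its sign. The 8 promoter sums gave 0 calls in DESeq2, against 4.45% of 10861 genes, with 2 at an unadjusted p under 0.05 and 1 call, Tlr9, in edgeR.

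The second comparison asked the same in mice that had received LPS. Of 63 receptor peaks tested, 6 were more accessible in CD45.1 and 0 in CD45.2 cells in DESeq2, against 4.10% and 2.34% of 49180 peaks. Towards the host, 3 had an unadjusted p under 0.05 and edgeR called 0. By the study's rule 2 peaks, both of Tlr4, were higher in CD45.1 and 0 in CD45.2 cells (edgeR 0), against 1.75% and 1.16%, and of the 2 the one 30.7 kb upstream was lost with the mouse as a block and without any 1 of the libraries of mice 2 and 3. The median log2 fold change was 0.24, beside -0.0079 over all peaks. The called peaks belonged to Tlr4 (3), Tlr5 (2) and Tlr8 (1), and their groups did not overlap, as in 99.6% of all called peaks and 27.2% of all peaks tested. Of these 6, 5 had been called as a peak in no CD45.2 library and were included only through CD45.1 libraries. Their separation is thus no independent support. None of the 11 Tlr2 peaks tested was called. The Tlr2 peak 1.94 kb downstream, in an intron, had 65.7, 67.7 and 60.5 against 45.24, 41.1 and 33.98 tags (0.72 ± 0.27, adjusted p = 0.103) and was called in edgeR (adjusted p = 0.0199) and with scaling to total tags (0.0352, 0.0199 to 0.526 over all alternatives). With the mouse as a block 3 peaks were called, all of Tlr4. Leaving out single libraries gave 1 to 5 calls, the fewest without the CD45.2 library of mouse 3 (1) and without either library of mouse 2 (2 each), and 3 without the CD45.1 library of mouse 1.

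Tlr4, whose product binds LPS together with CD14 and MD-2, differed at 3 of 8 peaks. Values are in the order of mice 1, 2 and 3. The region 5.59 kb upstream, printed above, had 28.4, 40.4 and 34.01 tags in graft and 3.48, 7.002 and 4.77 in host libraries, a log2 fold change of 2.69 ± 0.50 (adjusted p = 1.26e-05). The region 30.7 kb upstream had 17.8, 24.7 and 28.3 against 6.96, 6.13 and 2.98 tags (2.25 ± 0.56, adjusted p = 0.00218), and the region 24.7 kb downstream (chr4:66513176-66513331) had 19.5, 33.9 and 33.1 against 12.2, 6.13 and 5.37 tags (1.99 ± 0.50, adjusted p = 0.00232). In all 3 every graft library lay above every host library. The call 30.7 kb upstream was lost without the CD45.2 library of mouse 3 (adjusted p over all alternatives 7.37e-05 to 0.0952), and that 24.7 kb downstream without either library of mouse 2 or the CD45.2 library of mouse 3 (0.000111 to 0.0844).

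The Tlr4 promoter had 149, 148 and 139 against 151, 133 and 79.3 tags after LPS, with overlapping groups (0.30 ± 0.23, adjusted p = 0.621). Summed over 7 distal peaks, Tlr4 had 180.4 ± 48.9 tags in graft and 90.2 ± 14.8 in host cells (1.02 ± 0.23, adjusted p = 0.000353). It was the 1 of 10 distal receptor sums called, against 10.7% of 11979 genes. The sum took in the regions 5.59 and 30.7 kb upstream and 29.6 kb downstream, which were included only through CD45.1 libraries. It is thus no independent support. At rest, over 3 distal peaks, the Tlr4 sum was not called (DESeq2 log2 fold change 0.37 ± 0.19, adjusted p = 0.187).

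**Figure D3:**
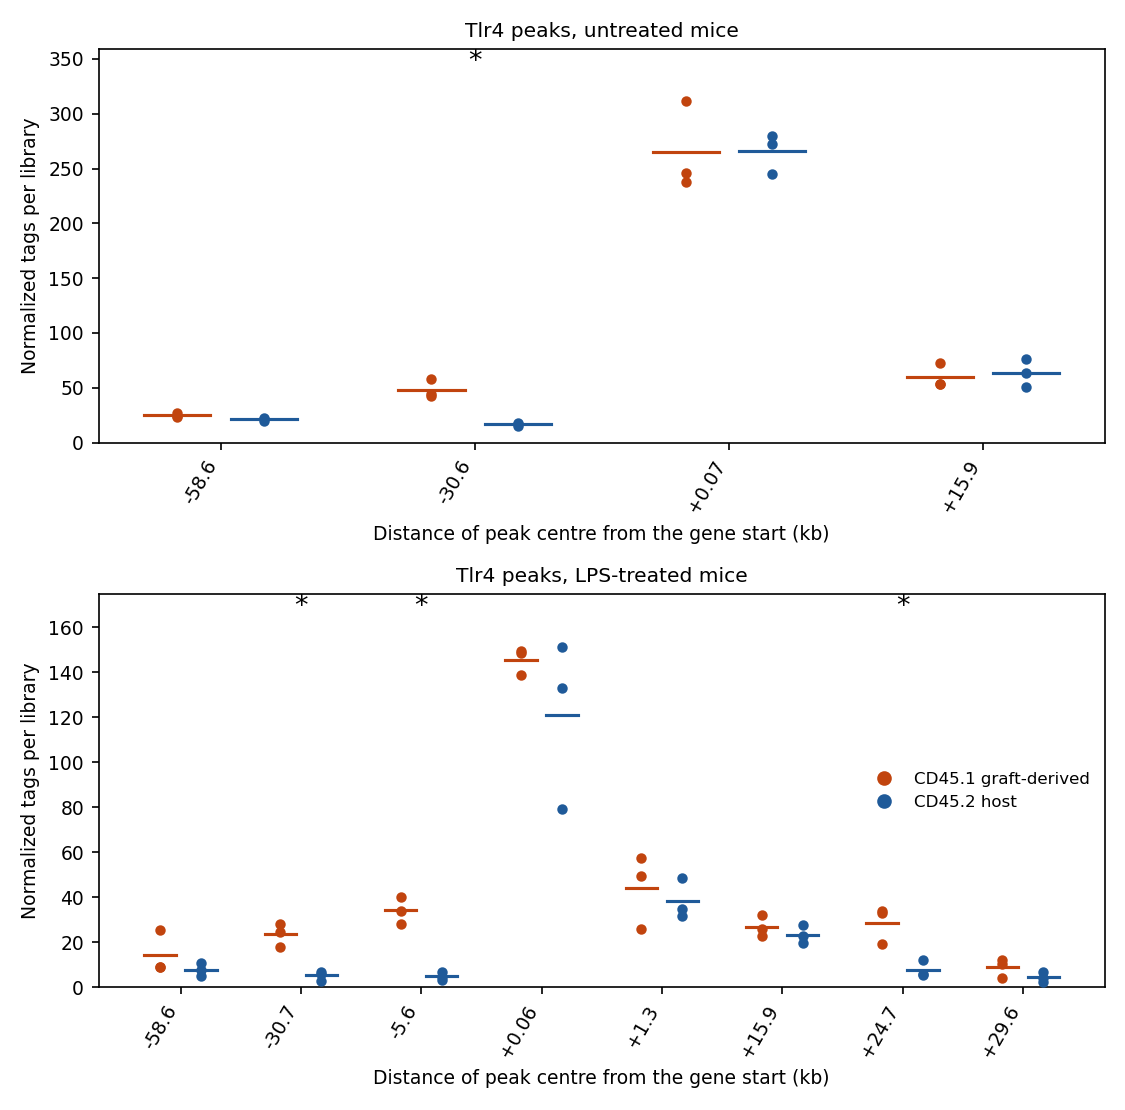
Normalized tags (y axis, scaled within each table) at every Tlr4 peak, ordered by distance from the gene start in kb (x axis), in untreated and in LPS-treated mice. Points are libraries, bars are means of 3, and stars mark an adjusted p under 0.05, which 1 region reached at rest and 3 after LPS, while the groups overlapped at the promoter.

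The region about 30.6 kb upstream of Tlr4 was the 1 receptor peak called in both tables. The Tlr4 regions 5.59 kb upstream and 24.7 kb downstream had no matching peak in the untreated table, so no change with LPS is given for them. Tlr5 was called 3.27 kb upstream, at 26.8, 37.8 and 23.6 against 15.7, 7.88 and 8.94 tags (1.52 ± 0.45, adjusted p = 0.0160), and 9.92 kb upstream, at 13.8, 14.3 and 10.4 against 0, 2.63 and 2.98 tags (2.52 ± 0.78, adjusted p = 0.0245). Both calls were lost with the mouse as a block (adjusted p = 0.111 and 0.0908). The first was also lost without the CD45.1 library of mouse 1 or 2 or the CD45.2 library of mouse 2 or 3 (0.00111 to 0.228 over all alternatives), and the second without any 1 of the 6 libraries (0.00250 to 0.155).

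Tlr8, an X-linked receptor for RNA breakdown products, had a promoter peak in the LPS table and none in the untreated one. That peak had been called in 1 CD45.1 library and in no CD45.2 library, so its separation, given below, is no independent support. Its CD45.1 libraries had 8.92, 14.3 and 4.72 normalized tags and its CD45.2 libraries 0, 0.875 and 0.596. The deposited tags were 10.5, 10.5 and 5 in the graft and 0, 1 and 0.5 in the host. Rounded by library they came to 27 against 2 in all, a ratio of normalized tags of 14.98 with a 95% exact counting interval of 3.76 to 130.0 that covers counting error only. DESeq2 called the peak (adjusted p = 0.0228) and the promoter sum, which held only this peak (adjusted p = 0.0390). The sum was the 1 of 8 promoter sums called, against 1.99% of 10427 genes. Both calls were lost with the mouse as a block (adjusted p = 0.0724 and 0.194) and without any 1 of 5 libraries, all but the CD45.1 library of mouse 3 (0.00300 to 0.210 and 0.00207 to 0.406 over all alternatives). The median log2 fold change of all X-linked peaks in this table was 0.12.

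The other receptor promoters were not called after LPS. The Tlr2 promoter had 89.2, 62.5 and 77.5 against 90.5, 52.5 and 60.2 tags, with overlapping groups (0.23 ± 0.26, adjusted p = 0.787). The Tlr9 promoter had 48.7, 44.3 and 34.01 against 50.5, 68.3 and 54.9 tags, with every host library again the higher (-0.46 ± 0.28, adjusted p = 0.472). The weaker promoters overlapped throughout: Tlr3 with 5.68, 7.81 and 14.2 against 3.48, 4.38 and 5.96 tags, Tlr5 with 11.4, 10.4 and 8.50 against 8.70, 12.3 and 9.54, Tlr7 with 16.2, 11.7 and 15.1 against 17.4, 12.3 and 13.7 and Tlr13 with 18.7, 19.5 and 9.45 against 8.70, 14.9 and 16.1. Tlr1 and Tlr6 had no promoter peak in the LPS table, where the 1 Tlr6 peak was annotated as intergenic, 1.17 kb upstream (-0.067 ± 0.28, adjusted p = 0.957). That Tlr6 peak overlapped a peak of the untreated table without counting as a match. Whether a promoter peak was lost with LPS was not tested.

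The third comparison followed the 46 matched receptor peaks from rest to LPS within each cell type, in 1 DESeq2 model of all 12 libraries. In host microglia 9 rose by more than 2-fold (adjusted p under 0.05), against 7.64% of all 39235 matched peaks tested, and 0 fell by that much, against 3.50%. Of the host peaks that went down, 5 had an unadjusted and 2 an adjusted p under 0.05 in DESeq2, none of these by more than 2-fold. The 2 were Tlr3, 4.67 kb upstream (-0.76 ± 0.24, adjusted p = 0.0114), and the Tlr5 promoter peak (-0.96 ± 0.36, adjusted p = 0.0499). In edgeR 4 had an adjusted p under 0.05, 1 of them past 2-fold. In graft-derived cells 4 rose and 2 fell, against 6.76% and 4.72%, and the 4 were among the 9. Of the 9, 5 belonged to Tlr2. Peaks had been called for each table, and 37 of the 46 were wider in the LPS table (median width ratio 1.23). With counts scaled by peak width, chosen after seeing the data, 8 rose in host cells, 4 in graft-derived cells and 0 fell in either.

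The largest rise was at Tlr2, 43.7 kb upstream. On the scale of all 12 libraries, host microglia had 16.3, 11.1 and 17.1 tags at rest and 153, 152 and 159 after LPS, a log2 fold change of 3.41 ± 0.28 (adjusted p = 1.94e-30). Graft-derived cells had 68.04, 55.9 and 118 at rest and 220.3, 257 and 194 after LPS (1.47 ± 0.22, adjusted p = 1.83e-09). Both cell types rose, from a lower level in the host. At 3.73 kb upstream the host had 33.7, 24.3 and 30.9 tags at rest and 128, 126 and 111 after LPS (2.05 ± 0.22, adjusted p = 9.98e-18), and the graft had 87.4, 86.6 and 119 and 143, 145 and 115 (0.46 ± 0.19, adjusted p = 0.0709). The host thus rose there, and the graft did not pass the test.

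At Tlr2, 3.37 kb upstream, the region with the AP-1 match, the host had 7.62, 5.81 and 4.96 tags at rest and 22.5, 45.5 and 38.6 after LPS (2.65 ± 0.40, adjusted p = 2.77e-09). The graft had 25.6, 30.1 and 21.5 and 36.3, 58.02 and 54.6 (0.92 ± 0.31, adjusted p = 0.0182), a rise under the 2-fold limit that passed it with counts scaled by width (log2 fold change 1.27). At all 3 Tlr2 regions, chosen because they were called, every LPS library of the host stood above every untreated one. The share of all matched peaks with such separation was not counted. At Tlr13, 8.22 kb upstream, the host had 7.62, 4.23 and 6.06 tags at rest and 47.5, 31.6 and 24.5 after LPS (2.51 ± 0.42, adjusted p = 1.20e-07). The graft had 24.97, 31.9 and 33.01 and 44.5, 36.7 and 22.4, which overlapped (0.21 ± 0.33, adjusted p = 0.692). The median change with LPS of all X-linked peaks was 0.24 in graft-derived and 0.12 in host cells.

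**Figure D4:**
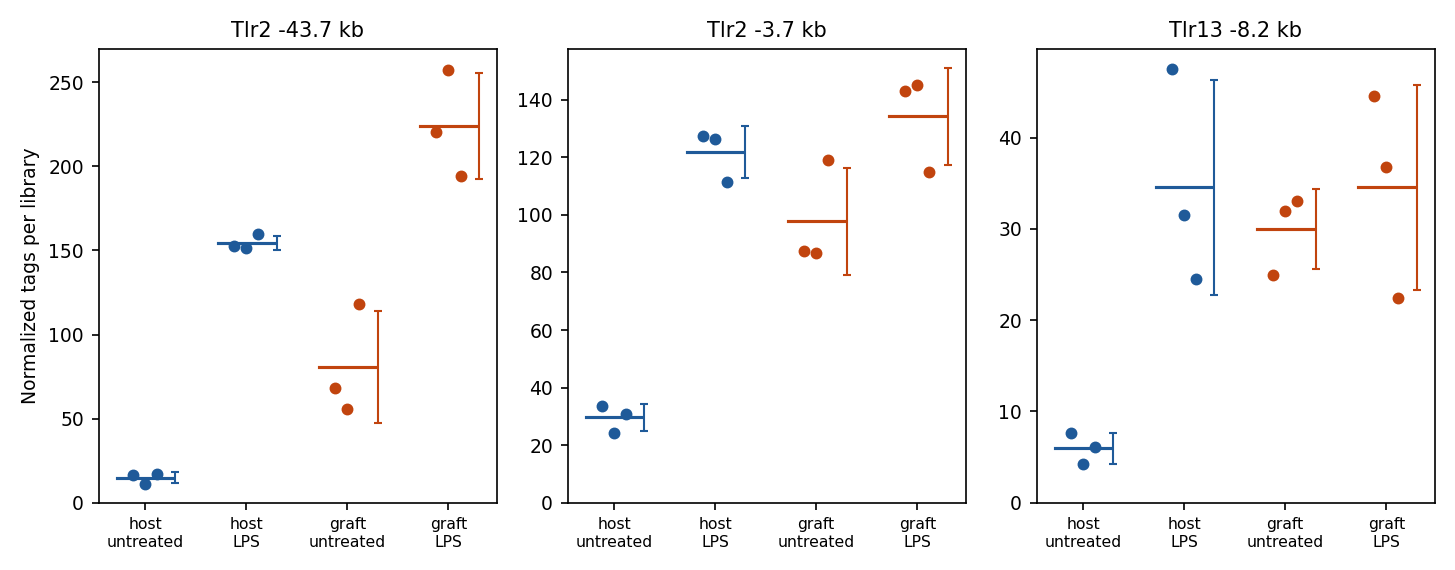
Normalized tags (y axis, scaled over all 12 libraries) in each library of the 4 groups at the 3 receptor peaks whose change with LPS differed between the cell types. Points are libraries, bars are means and error bars are SD (n = 3), and in each panel the untreated host libraries lie lowest.

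Another 3 regions rose in both cell types. At Tlr5, 28.3 kb downstream (chr1:184913177-184913293), the host went from 29.4 ± 4.78 to 96.2 ± 12.1 tags (SD, n = 3; log2 fold change in DESeq2 1.71 ± 0.24, adjusted p = 2.08e-10) and the graft from 38.8 ± 9.28 to 111 ± 23.6 (1.54 ± 0.23, adjusted p = 2.54e-09). At Tlr7, 23.2 kb upstream (chrX:163791655-163791813), in an intron of the transcript NM_026662, the host went from 20.04 ± 4.32 to 65.6 ± 18.5 (1.70 ± 0.29, adjusted p = 1.99e-07) and the graft from 23.1 ± 0.766 to 54.1 ± 7.13 (1.22 ± 0.29, adjusted p = 0.000376). At Tlr1, 9.50 kb downstream (chr5:65314332-65314544), the host went from 26.7 ± 9.81 to 66.6 ± 11.6 (1.30 ± 0.28, adjusted p = 7.37e-05) and the graft from 20.5 ± 1.95 to 44.9 ± 5.38 (1.12 ± 0.30, adjusted p = 0.00260). In each of the 3 regions every LPS library stood above every untreated library of its cell type. These regions were chosen because they were called, and the share of all matched peaks separated in this way was not counted. Scaling to total tags removed both calls at Tlr1 (adjusted p = 0.0591 in the host and 0.0894 in the graft), and scaling by width took the graft's rise at Tlr7 under 2-fold (log2 fold change 0.92).

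The Tlr2 promoter was the 1 promoter that rose past 2-fold, in host cells, from 46.9 ± 6.06 to 98.1 ± 28.4 tags (1.03 ± 0.23, adjusted p = 0.000130). It lay close to the limit and fell under it with counts scaled by width (log2 fold change 0.90), with any overlap as a match, and without the CD45.2 library of mouse 1 or 5, and missed the test with total tags (adjusted p = 0.0509). In the graft it went from 61.6 ± 10.2 to 112 ± 18.2 (0.88 ± 0.22, adjusted p = 0.000844), a rise under 2-fold. The fifth Tlr2 region, 17.6 kb upstream, went from 17.002 ± 3.30 to 33.8 ± 13.8 in the host (1.05 ± 0.33, adjusted p = 0.0127), and that call was lost with total tags and without the CD45.2 library of mouse 2 or 5 (0.000597 to 0.274 over all alternatives). The Tlr4 promoter was not called in the graft (0.27 ± 0.18, adjusted p = 0.299) or the host (-0.075 ± 0.19, adjusted p = 0.838).

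The falls in graft-derived cells were at the Tlr5 promoter peak, from 31.2 ± 3.21 to 14.8 ± 1.99 tags (-1.07 ± 0.37, adjusted p = 0.0226), and at Tlr13, 6.94 kb upstream, from 34.1 ± 6.07 to 16.4 ± 9.35 (-1.06 ± 0.40, adjusted p = 0.0414). Both peaks were narrower in the LPS table, and with counts scaled by width their log2 fold changes of -0.50 and -0.13 were not called. Leaving out any 1 of 5 graft libraries (all but that of mouse 6) removed the first call, and leaving out any 1 of 9 libraries (all but those of mouse 1 and the CD45.2 library of mouse 3) the second. In the host the Tlr5 promoter peak went from 29.2 ± 1.18 to 14.7 ± 2.66 tags (DESeq2 -0.96 ± 0.36, adjusted p = 0.0499), under the 2-fold limit. The Tlr13 peak went from 22.2 ± 4.62 to 12.8 ± 6.62 there (-0.99 ± 0.43, adjusted p = 0.104), a fall called in edgeR (adjusted p = 0.0390). The interaction of origin and treatment passed at neither peak (-0.12 ± 0.52 and -0.074 ± 0.59).

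**Figure D5:**
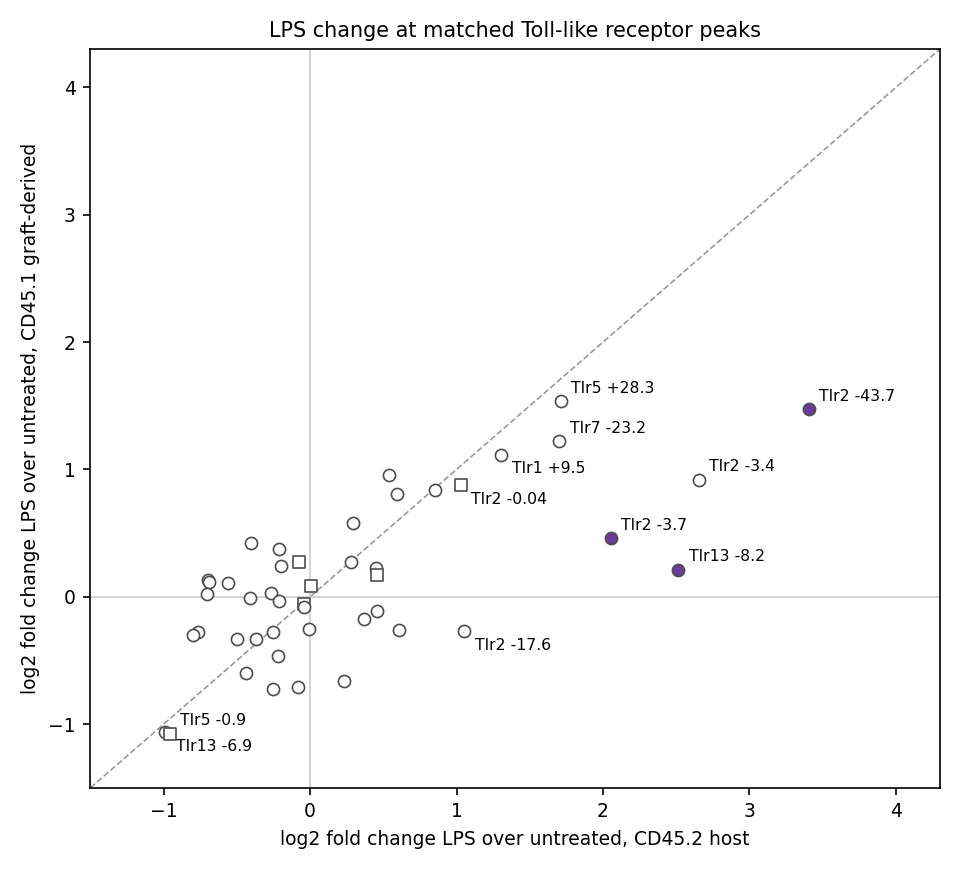
Log2 fold change of LPS over untreated in host microglia and in graft-derived cells, 1 on each axis, at the 46 matched receptor peaks (squares are promoters), with the line of equal change dashed and the distance from the gene start in kb beside labelled peaks. Filled points differed between the cell types (adjusted p under 0.05), and these 3 had host changes of 2.05 to 3.41.

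The fourth comparison tested that difference itself, as the interaction of origin and treatment in the same model. Of the 46 receptor peaks 3 passed, against 0.265% of all 39235 matched peaks tested. DESeq2 sets peaks of low mean count aside, and of those with an adjusted p, 33 receptor peaks and 25543 in all, the share over all peaks was 0.407%. At Tlr2, 43.7 kb upstream, the term (change in CD45.1 minus change in CD45.2, log2) was -1.93 ± 0.35, adjusted p = 0.000130. At Tlr2, 3.73 kb upstream, it was -1.59 ± 0.29, adjusted p = 0.000140, and at Tlr13, 8.22 kb upstream, -2.30 ± 0.53, adjusted p = 0.00754. In all 3 the rise was smaller in graft-derived cells, which were the higher at rest. At Tlr2, 3.37 kb upstream, the term of -1.73 ± 0.50 did not pass (adjusted p = 0.0999) but did in edgeR (adjusted p = 0.0355) and without the CD45.2 library of mouse 1 (0.0479, 0.0355 to 1.00 over all alternatives). The untreated libraries enter both this term and the comparison at rest.

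The interaction at Tlr13 was lost without the CD45.2 library of mouse 1, 5 or 6 or the CD45.1 library of mouse 3 (adjusted p = 0.0504, 0.156, 0.0506 and 0.0707, 0.00603 to 0.156 over all alternatives). Scaling to total tags also removed it (0.130) and that at Tlr2, 3.73 kb upstream (0.0932). The term at Tlr2, 43.7 kb upstream, passed under every alternative (1.29e-05 to 0.0418).

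Set side by side within each table, the Tlr2 regions that were higher in graft-derived cells at rest were not called after LPS, except that 43.7 kb upstream with scaling to total tags. At 43.7 kb upstream the log2 fold change of CD45.1 over CD45.2 was 2.48 at rest and 0.51 ± 0.20, adjusted p = 0.110 after LPS, when the graft libraries were still the higher 3. Scaling to total tags, which moved the median of all peaks by 0.14, gave 0.64 there, adjusted p = 0.0271 (0.0271 to 0.519 over all alternatives). At 3.73 kb it was 1.76 and 0.13 ± 0.22, adjusted p = 0.874, and at 3.37 kb 2.14 and 0.40 ± 0.37, adjusted p = 0.706, with overlap after LPS at both. At 14.2 kb it was 2.00 and 1.12 ± 0.62, adjusted p = 0.385, and every graft library was still above every host library after LPS. At 17.6 kb it was 1.16 and -0.19 ± 0.41, adjusted p = 0.903, with overlap after LPS. A change of the difference was called at neither region. The interaction was -0.86 ± 0.66 at 14.2 kb, without an adjusted p, and -1.32 ± 0.45 at 17.6 kb (DESeq2 adjusted p = 0.310). The region 19.6 kb downstream had no match. For Tlr13, 8.22 kb upstream, it was 2.41 and 0.051 ± 0.41, adjusted p = 0.978. Of the 15 receptor peaks called at rest, 11 had a match in the LPS table, and 1 of these, at Tlr4, was called there. Over all peaks called at rest, 63.7% had a match, and 32.9% of these were called after LPS.

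The genes that work with the receptors (co-receptors, adaptors, kinases, transcription factors and inhibitors) were taken as a list of 36. At rest 3 of 29 distal sums were higher in CD45.1 and 0 in CD45.2 cells (1 at an unadjusted p under 0.05, 0 in edgeR), against 11.7% and 9.85% of all genes, so the share towards CD45.1 cells was near that of all genes. The called genes were Cd36, a scavenger co-receptor of TLR2 (578 ± 12.3 against 88.9 ± 28.7 tags, log2 fold change in DESeq2 2.72 ± 0.17, adjusted p = 1.75e-51), Irak3, an inhibitory kinase of the MyD88 pathway (1.41 ± 0.20, adjusted p = 4.86e-11), and Irak4, its proximal kinase (1.06 ± 0.21, adjusted p = 4.73e-06). Among 32 promoter sums at rest, 3 were higher in CD45.1 and 0 in CD45.2 cells (0 at an unadjusted p under 0.05, 0 in edgeR), against 2.21% and 2.24%. The called genes were Cd36 (3.77 ± 0.66, adjusted p = 9.27e-07) and the LPS co-receptors Cd14 (78.1 ± 13.2 against 38.4 ± 3.08 tags, 1.04 ± 0.25, adjusted p = 0.00120) and Ly96, which encodes MD-2 (71.8 ± 5.56 against 38.2 ± 2.94 tags, 0.92 ± 0.25, adjusted p = 0.00694). All were higher in the graft.

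After LPS 2 of 27 distal sums of the list were higher in CD45.1 cells, Cd36 (1.58 ± 0.19, adjusted p = 6.33e-14) and Irak4 (1.60 ± 0.30, adjusted p = 5.88e-06), and 0 in CD45.2 cells (0 at an unadjusted p under 0.05, 0 in edgeR), against 6.54% and 4.17% of all genes, again a share near that of all genes towards CD45.1. Of 31 promoter sums DESeq2 called 0 in either direction, against 0.949% and 1.04%, with 1 higher in CD45.1 cells at an unadjusted p under 0.05, 1 in edgeR, and 0 of both towards the host. The list's median log2 fold change at rest was 0.060 for distal and for promoter sums, beside -0.018 and 0.052 over all genes tested, and after LPS 0.0074 and -0.0049, beside -0.015 and -0.035.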

How the data were processed

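ATAC-seq libraries of 12 sorted cell samples were used. Per the file headers the authors called peaks with HOMER findPeaks, merged them separately for untreated and for LPS-treated mice and deposited raw tag values for each merged peak, estimated counts in steps of 0.5, on mm9. The submitters' processing notes name bcl2fastq 2.17.1.14, Bowtie2, Picard 1.108 and HOMER. Settings for alignment, duplicates and the transposase shift are not given in the sources used here. Of the peak lists of single libraries, only the record of which ones each merged peak came from was used.

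Counts were rounded to whole numbers, and peaks with more than 10 in at least 1 library were tested with DESeq2 1.42.0 (Wald test, Benjamini-Hochberg over all peaks), the study's tool, in R 4.3.3, CD45.1 against CD45.2 within each table. Distal and promoter tags were summed for each gene and tested alike. Peaks of the tables overlapping each other by at least 50% entered 1 model of 12 libraries for LPS and for its interaction with origin. Tests were checked on simulated counts. Alternatives were edgeR 4.0.16, other scalings, filters, matching, peak width and each library left out. Each p-value rests on 3 libraries a group, and the main fits treat both populations of a mouse as independent. The LPS and interaction terms use 1 spread shared over all 12 libraries.

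Named peaks were the receptor peaks with an adjusted p under 0.05 (at most 12 a fit with values by library) and the strongest promoter peak of each gene. Members and lists were chosen with earlier results of these data known. Libraries of equal number were assumed to come from the same mouse, and the mouse so defined was tried as a replicate block. Deviations from the group means correlated between libraries of equal number at 0.080, 0.083 and 0.087 at rest and at -0.065, 0.060 and 0.146 after LPS. Between libraries of different number the correlations ran from -0.101 to 0.00144 at rest and from -0.158 to 0.117 after LPS.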

Additional observations from a re-analysis of the deposited data

Results flagged for a closer look

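At 3 regions the change with LPS differed between graft-derived cells and host microglia by the test of the interaction. The terms, as the log2 change in CD45.1 minus that in CD45.2 cells, were -1.93 at Tlr2, 43.7 kb upstream, -1.59 at Tlr2, 3.73 kb upstream, and -2.30 at Tlr13, 8.22 kb upstream. In host microglia the 3 libraries after LPS lay above the 3 untreated ones at each of these regions, and the share of all matched peaks with such separation was not counted.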

How the results depend on the processing

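No called result changed its direction under any alternative. With edgeR, 7 receptor peaks in place of 3 were higher in CD45.2 cells at rest, 5 in place of 2 passed the study's rule in CD45.1 cells after LPS, 2 distal sums in place of 1 were called after LPS, 1 promoter sum in place of 0 at rest, and 1 peak in place of 0 fell with LPS in host cells. With scaling to total tags, which moved the median log2 fold change of all peaks in the LPS table by 0.14, that of the LPS response in host cells by -0.13 and that of the interaction by 0.10, 1 peak was higher in CD45.2 cells at rest, 0 distal sums were called at rest and 0 promoter sums after LPS, 0 peaks fell in graft-derived cells and 1 interaction passed. With a mean count of at least 20, the study's rule gave 3 and 0 peaks at rest and 1 after LPS, and 2 peaks were higher in CD45.1 cells after LPS. With counts scaled by peak width, 0 peaks fell in graft-derived cells. With the mouse as a replicate block, 3 peaks were higher in CD45.1 cells after LPS, 1 of them by the study's rule, 0 promoter sums were called after LPS, and the interaction gave 3 calls. At rest the block gave 10 and 2 peaks, 4 and 1 by the study's rule, and at an adjusted p under 0.05 it changed no call at a receptor gene beside those named in the report.

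Leaving out 1 library at a time gave 8 to 12 peaks towards CD45.1 and 2 towards CD45.2 cells at rest (3 to 7 and 0 to 1 by the study's rule), 1 to 5 after LPS (1 to 3), 0 to 1 promoter sums after LPS, 0 to 2 peaks that fell and 4 to 6 that rose in graft-derived cells, 7 to 9 that rose in host cells and 2 to 3 interactions. Unless named above, the cause of a change was not tested. The LPS libraries held fewer tags, and their counting error is larger.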
